A study of Mus musculus with 59 samples.

Results

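The nuclear genes for the subunits of mitochondrial respiratory complexes II to V were described in the prefrontal cortex of young mice. Members were all protein-coding rows of the deposited table whose symbol was Sdha, Sdhb, Sdhc, Sdhd or Cyc1, or began with Uqcr, Atp5, Cox4i, Cox5, Cox6, Cox7 or Cox8. The rule used names and no measured value. It found 45 of the 18088 genes in the table, with 4 in complex II, 9 in complex III, 15 in complex IV and 17 in complex V. They lie on 18 chromosomes, with 1 of them, Cox7b, on the X chromosome. Cox7b2, Cox8b and Cox8c were not analysed here.

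All mice were C57BL/6J, were sampled at postnatal day 25 and were either wild-type (WT) or heterozygous for Ash1l (HT), a histone methyltransferase gene. The kind of Ash1l allele is not given in the sources used here. Pups of both sexes received vehicle, fluoxetine (a serotonin reuptake inhibitor) or lithium (a mood stabiliser) through the milk of their mothers from postnatal day 3 to 24. Both drugs were compared with the same vehicle libraries. This gave 12 groups of genotype, drug and sex, 11 with 5 libraries and HT lithium females with 4, which makes 30 WT and 29 HT libraries. Dams and litters are not given in the labels, so p-values reflect the spread among these libraries alone.

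Complexes II, III and IV pass electrons from succinate and ubiquinol to oxygen, and complexes III and IV pump protons across the inner mitochondrial membrane. Complex V, the ATP synthase, uses the proton gradient to make ATP, most of which in neurons is spent on ion pumping and synaptic transmission. Complexes III, IV and V each combine nuclear subunits with subunits encoded in mitochondrial DNA, whereas complex II is nuclear throughout. Several complex IV subunits exist in pairs of isoforms, of which one is widespread and the other prevails in muscle, lung or testis.

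The libraries held between 24470000 and 36320000 reads each, recovered from the deposited values. Ash1l was between 3641 and 4382 normalised counts in the 29 HT libraries and between 4703 and 6218 in 29 of the 30 WT libraries. It was 3557 in replicate 3 of the libraries labelled WT vehicle female, which goes against that label. That library and WT vehicle male replicate 2 stood apart from the rest, also for the genes described here, so results that changed clearly when both were left out are given with and without them. The 6 neuronal marker genes summed to between 127371 and 209012 normalised counts per library. Choroid plexus markers reached 7640 in 1 WT vehicle female library, against a median of 233.9 over vehicle libraries. The samples are bulk tissue, in which fewer cells of a type and less RNA per cell cannot be told apart.

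To show what lies upstream of these genes, promoter sequence was matched from RefSeq (GRCm38.p6), and 34 of the 45 members had a window from 250 bases before to 50 bases after the transcript start. The windows were searched on both strands for letters bound by factors known for respiratory genes: GCGCA and GCGC with any 1 base between them for NRF1, CCGGAAG for ETS factors such as GABP, AAGATGG for YY1 and GGGCGG for SP1. The searches were separate, and matches of different letters may overlap. The NRF1 letters were in 10 of 34 members (29.4%) and in 7.2% of the 17492 genes with a window. They were in 6 windows of complex V, 2 of complex II and 1 each of complexes III and IV. The ETS letters were in 12 members (35.3%, against 12.9% of all genes), the YY1 letters in 4 (11.8%, against 7.2%) and the SP1 letters in 13 (38.2%, against 49.2%). The 4 genes below are 1 per complex. They were chosen because Sdhd and Cox6a1 rose with lithium, Uqcr11 and Cox6a1 fell in HT vehicle females, and Atp5h passed the test in no comparison. Capitals mark matches of the NRF1, ETS or YY1 letters. Matches of the SP1 letters, of which the Cox6a1 window holds 2, are not marked. Each stretch reads 5′ to 3′ on the minus strand of its chromosome, and only the part of the window outside annotated exons is printed. The stretches are Sdhd at chr9:50603850-50603909, Uqcr11 at chr10:80406831-80407071, Cox6a1 at chr5:115348982-115349129 and Atp5h at chr11:115419963-115420127.
Sdhd: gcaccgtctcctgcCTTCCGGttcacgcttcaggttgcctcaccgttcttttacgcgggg
Uqcr11: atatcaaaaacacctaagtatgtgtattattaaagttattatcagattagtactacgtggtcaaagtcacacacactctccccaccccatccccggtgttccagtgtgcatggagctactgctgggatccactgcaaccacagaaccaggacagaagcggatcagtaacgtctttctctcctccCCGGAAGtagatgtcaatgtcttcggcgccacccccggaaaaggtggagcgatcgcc
Cox6a1: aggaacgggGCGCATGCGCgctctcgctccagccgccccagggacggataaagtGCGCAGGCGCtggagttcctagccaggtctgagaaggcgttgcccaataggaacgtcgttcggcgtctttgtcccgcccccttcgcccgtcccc
Atp5h: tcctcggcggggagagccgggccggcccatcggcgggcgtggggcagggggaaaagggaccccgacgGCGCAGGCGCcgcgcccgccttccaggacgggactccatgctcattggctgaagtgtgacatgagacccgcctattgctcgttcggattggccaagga
In Sdhd and Uqcr11 the capitals are the ETS letters, on the opposite strand in Sdhd, and their first base lies 46 and 66 bases before the start. In Cox6a1 the NRF1 letters occur 162 and 117 bases before the start, and in Atp5h 141 bases before it. Outside the printed stretches, the windows also hold ETS letters, 16 bases before the start in Cox6a1 and 38 in Atp5h. The Sdhd window likewise holds NRF1 letters 79 bases before the start. A match is a description of the letters and not evidence of binding.

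The 45 messages were abundant and short. Divided by the length of the principal transcript, their median level over the 59 libraries was 3414 normalised counts per kilobase, against 154.6 for all 17875 genes tested. Median length was 742 bases, against 2727 for all genes tested, and median GC content 51.0%, against 50% for all genes tested. By complex, the median level per kilobase was 1968 in complex II, 2759 in complex III, 3756 in complex IV and 3726 in complex V. Some members, such as Atp5k, Atp5l, Uqcrh and Cox6c, belong to families with near-identical processed copies in the genome, and their counts are uncertain to that extent.

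Within complex II, Sdha, the flavoprotein that oxidises succinate, was at 3414 per kilobase and the iron-sulfur subunit Sdhb at 2323. The membrane anchors Sdhd and Sdhc were lower, at 1613 and 573.8. In complex III, the hinge protein Uqcrh was at 5545, the core protein Uqcrc1 at 3327, and Uqcrfs1, the Rieske iron-sulfur protein, at 1824. Uqcrq, another small subunit, has principal transcripts of 405 to 1521 bases, which puts it anywhere from 1611 to 6052 and leaves the ends of the order in complex III unsettled. In complex V, the catalytic beta subunit Atp5b was at 13464 and the alpha subunit Atp5a1 at 8334, while Atp5s, a coupling factor that is not a core subunit, was at 202.8. The 3 genes for the c subunit of the rotor encode the same mature protein. Atp5g3 was at 5445, and Atp5g2 at 358.0, a ratio of 15.2. Atp5g1 was at 1259, but its principal transcripts run from 596 to 4715 bases, which puts it anywhere from 714.3 to 5651.

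Complex IV had the widest span of levels, from 31.87 to 16315 per kilobase. Cox8a (16315), Cox4i1 (13486), Cox6a1 (11516), Cox6c (7487) and Cox6b1 (6719) were its highest genes. The tissue-restricted isoforms were at the other end. Cox4i2, the lung isoform, was 366 times lower per kilobase than Cox4i1. Cox6b2, the testis isoform, was 183 times lower than Cox6b1. Cox7a1, a heart and muscle isoform, was 118 times lower than Cox7a2, and Cox6a2, also known from heart and muscle, was 65.1 times lower than Cox6a1. These ratios compare level per kilobase over all 59 libraries. Cox7a2l, which takes part in the assembly of supercomplexes rather than acting as an ordinary subunit, was at 2827.

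**Figure D1:**
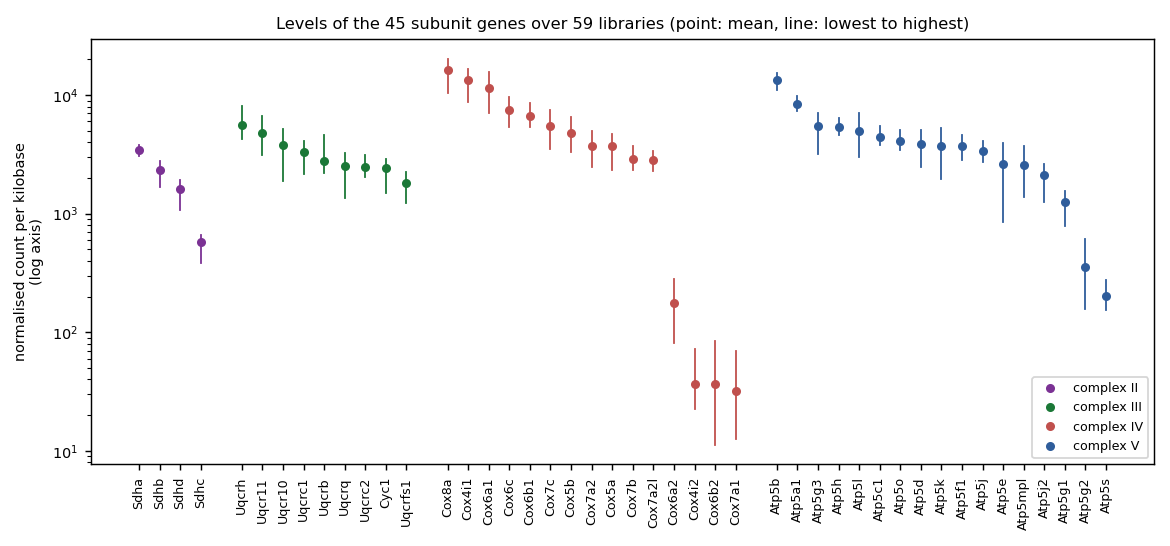
Level of each of the 45 genes in normalised counts per kilobase of principal transcript (log axis), ordered within complexes II, III, IV and V; points are means over 59 libraries and lines run from the lowest to the highest library. Cox8a is highest at 16315 and Cox7a1 lowest at 31.87.

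Libraries of 1 group differed little for most members. The within-group SD of log2(normalised count + 1) had a median of 0.137 over the 45 genes, against 0.189 over all genes tested. Sdha varied least (0.0629) and Cox6b2, one of the 4 low isoforms, most (0.475). Complex II had the smallest median SD (0.102), and complexes III, IV and V had 0.131, 0.145 and 0.139.

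Across the 12 groups, the members of all 4 complexes were lowest in WT vehicle males. Of the 45 genes, 33 had their lowest group mean there and 6 in HT fluoxetine females. WT vehicle females had the highest group mean of 22 genes, HT lithium males of 6 and HT lithium females of 5. Without the 2 libraries that stood apart, WT vehicle males were lowest for 31 genes and WT vehicle females highest for 12. As a summary, each gene's log2(normalised count + 1) was expressed as the deviation from its mean over the 59 libraries and averaged over the 45 genes. This score was -0.20 ± 0.16 (SD, n = 5) in WT vehicle males and 0.12 ± 0.14 (n = 5) in WT vehicle females. HT vehicle females (-0.02 ± 0.06) and HT vehicle males (-0.06 ± 0.10, n = 5 each) lay between them. Among drug groups the scores ran from -0.08 ± 0.05 in HT fluoxetine females (n = 5) to 0.11 ± 0.11 in HT lithium females (n = 4). Without the 2 libraries the score was -0.14 ± 0.07 in WT vehicle males and 0.07 ± 0.09 in WT vehicle females (n = 4 each), so that HT lithium females were highest.

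The complexes followed similar orders of groups. WT vehicle males were lowest in each, at -0.14 ± 0.13 for complex II, -0.21 ± 0.14 for complex III, -0.19 ± 0.19 for complex IV and -0.22 ± 0.16 for complex V (SD, n = 5). HT fluoxetine females were next in each, at -0.05, -0.06, -0.09 and -0.08. The highest group was WT vehicle females for complexes III (0.10 ± 0.12) and V (0.13 ± 0.13). It was HT lithium females for complex IV (0.16 ± 0.14, n = 4), with WT vehicle females close behind (0.16 ± 0.20). Complex II differed in that WT vehicle females were near the overall mean (0.00 ± 0.07) and WT fluoxetine females were highest (0.06 ± 0.05). Without the library labelled WT vehicle female replicate 3, that group was at 0.07 ± 0.10 for complex III, below HT lithium females (0.09 ± 0.13), at 0.08 ± 0.10 for complex IV and still highest at 0.09 ± 0.10 for complex V (n = 4). WT vehicle males remained lowest in each complex without replicate 2, at -0.09, -0.15, -0.12 and -0.15.

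**Figure D2:**
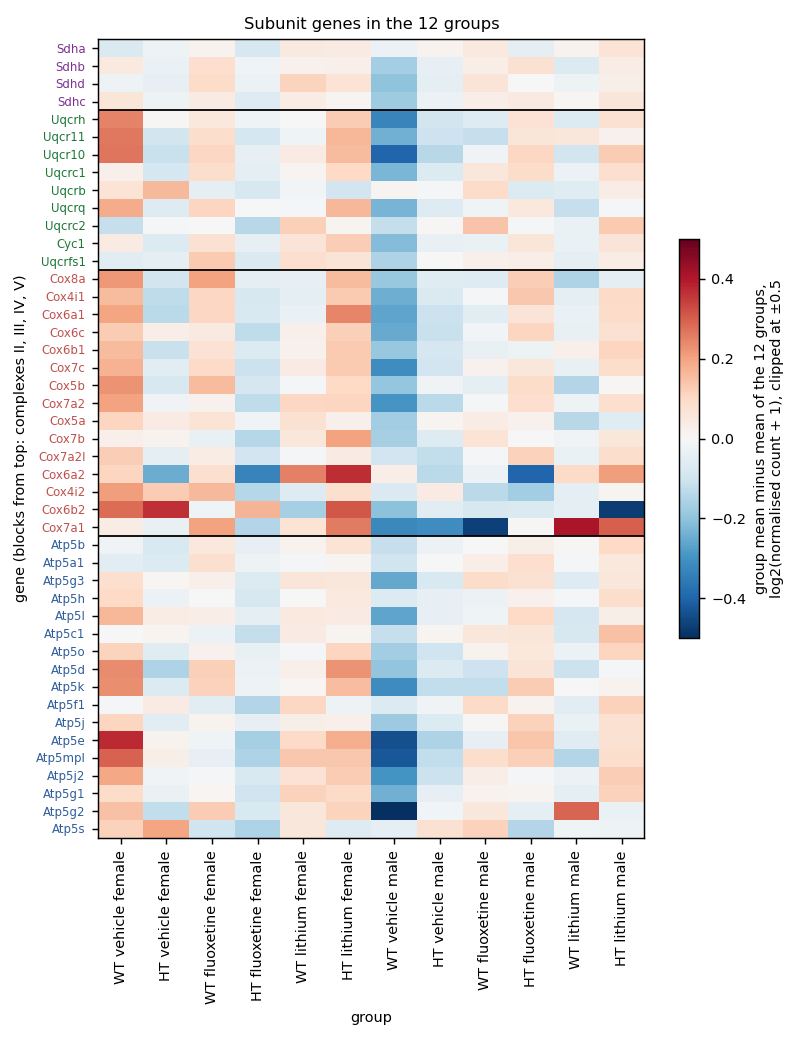
Heat map of the 45 genes (rows, in blocks of complexes II to V) over the 12 groups (columns); colour is the group mean minus the mean of the 12 groups on the log2(normalised count + 1) scale, clipped at 0.5 either way. The column of WT vehicle males is the lowest for 33 genes and that of WT vehicle females the highest for 22.

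The ends of this order held 2 libraries that stood apart. WT vehicle male replicate 2 had a score of -0.47 and the lowest value of all 59 libraries for 29 of the 45 genes. The library labelled WT vehicle female replicate 3 had a score of 0.33 and the highest value for 20 genes. Other short and abundant messages moved in the same libraries. The score of 76 cytosolic ribosomal protein genes was -0.52 in the first and 0.40 in the second, and that of 38 nuclear complex I genes was -0.40 and 0.30. The 13 mitochondrially encoded subunits went the other way in the male library, at 0.39.

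**Figure D3:**
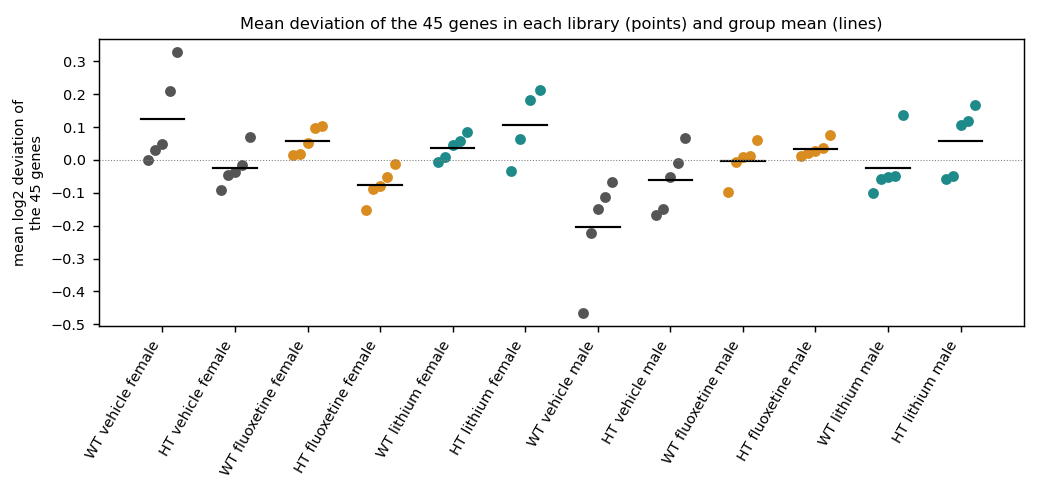
Score of the 45 genes in each of the 59 libraries (mean deviation from the 59-library mean, log2 units) by group; each point is 1 library. The lowest point, -0.47, is WT vehicle male replicate 2, and the highest, 0.33, is the library labelled WT vehicle female replicate 3.

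Lithium went with higher average levels of members of all 4 complexes, but not in every stratum. Averaged over the 4 strata of genotype and sex, 17 of 45 genes rose and 0 fell (limma on log2(normalised count + 1), Benjamini-Hochberg adjusted p under 0.05). Over all genes tested, 7.39% were higher and 13.1% called in either direction. The median log2 fold change was 0.10 over the members and 0.00 over all genes, and 40 of 45 were positive. In WT females alone the median of the members was -0.10, and 32 of 45 were negative. On average over the strata, the count of risen members was 2 of 4 in complex II, 4 of 9 in complex III, 7 of 15 in complex IV and 4 of 17 in complex V.

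In complex II, Sdhd, an anchor subunit that helps to bind ubiquinone, was 1332, 1886 and 2212 normalised counts (lowest, median, highest of 20 vehicle libraries) and 1776, 2063 and 2319 in 19 lithium libraries. The ranges overlapped, and 17 of 19 lithium libraries lay above the vehicle mean of their own genotype and sex. Its log2 fold change was 0.13 (SE 0.0339, limma, adjusted p = 0.00942). Sdha, the catalytic subunit, went from 8925, 9688 and 10918 to 9162, 10309 and 10779, with 17 of 19 libraries above and a fold change of 0.07 (SE 0.0244, adjusted p = 0.0446). Sdhb, at 0.05 (adjusted p = 0.317), was the member of complex II with the lowest value.

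In complex III, the core proteins Uqcrc1 and Uqcrc2, cytochrome c1 (Cyc1) and the small subunit Uqcr10 rose. Uqcrc1 was 3584, 5085 and 6577 in vehicle and 4909, 5599 and 6144 in lithium libraries. Again the ranges overlapped, and 17 of 19 lithium libraries lay above their vehicle mean. Its log2 fold change was 0.13 (SE 0.0419, adjusted p = 0.027), beside 0.12 for Uqcrc2, 0.13 for Cyc1 and 0.15 for Uqcr10 (adjusted p from 0.0287 to 0.0445; limma). Uqcrfs1 had 17 of 19 libraries above and 0.10 (adjusted p = 0.0789), and Uqcrb, a ubiquinone-binding subunit, had the lowest value of the complex at -0.09 (adjusted p = 0.309).

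In complex IV, Cox6b1, which sits where the monomers of the dimer meet, Cox7a2, Cox7b, Cox7c and Cox6a1 rose by 0.12 to 0.15 on the log2 scale. Cox6b1 was 3348, 3878 and 5249 in vehicle and 3831, 4184 and 5066 in lithium libraries (0.13, SE 0.0353, adjusted p = 0.011). Cox7a2 was 1640, 2361 and 3305 against 2307, 2579 and 2887 (0.13, SE 0.0377, adjusted p = 0.0165). The lowest vehicle libraries lay below every lithium library for both genes, and the highest vehicle library lay above them. Cox4i1, at 0.10 (adjusted p = 0.0546), was just outside the threshold, and Cox6b2 had the lowest value at -0.19 (adjusted p = 0.444).

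The 2 risen members with the largest fold changes were low isoforms. Cox6a2 was 76.67, 114.5 and 173.3 in vehicle and 100.9, 144.2 and 189.6 in lithium libraries, with 15 of 19 above and a log2 fold change of 0.29 (SE 0.0936, adjusted p = 0.0291). Cox7a1 was 4.947, 10.80 and 25.71 against 9.608, 13.36 and 27.49, with 17 of 19 above and 0.42 (SE 0.145, adjusted p = 0.0462), and it rests on few reads per library. Cox7a1 did not pass with edgeR or DESeq2, with a pseudocount of 10, or under 27 of the 48 alternatives in all. For both, the arms overlapped over most of their range. Cox6a2 differed most in HT females (0.62) and HT males (0.34), and less in WT females (0.15) and WT males (0.06). With all 59 libraries in the fit it passed in no single stratum, and its difference between genotypes did not pass.

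Markers of some cell types moved in the same comparison. Of 4 parvalbumin interneuron markers, Pvalb rose by 0.38 (adjusted p = 0.00165) and Kcnc1 by 0.12, and Erbb4 fell by 0.155 (limma). In HT females, where Cox6a2 differed most but did not pass, Pvalb rose by 0.70 (limma, adjusted p = 0.0245). Their summed level was 7614, 8879 and 9603 in vehicle and 8393, 9036 and 10112 in lithium libraries. Of the 3 skeletal muscle markers in the table, Myh4 fell by 0.49 and none rose. Endothelial markers fell for 3 of 4 genes, meningeal for 2 of 4, and astrocyte and microglial for 2 of 5 each. Of 6 neuronal markers 0 passed (median 0.03), and of 5 striatal markers 0 passed, with a median of 0.42, a vehicle range of 2066 to 6890 and a lithium range of 2335 to 9876. The part of these in the changes of the respiratory genes was not tested.

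In complex V, Atp5b, the catalytic beta subunit, was 21293, 24388 and 28363 in vehicle and 24513, 26042 and 29689 in lithium libraries. The lithium range began just above the vehicle median, and 18 of 19 lithium libraries lay above the vehicle mean of their stratum. Its log2 fold change was 0.11 (SE 0.0283, adjusted p = 0.00816). The stalk subunit Atp5o (0.10, adjusted p = 0.0216), the membrane subunit Atp5j2 (0.13) and Atp5g1 (0.13), one of the c subunit genes, also rose. The other c subunit gene with a large value, Atp5g2, had 0.23 but did not pass (adjusted p = 0.236), and Atp5s had the lowest value, -0.10 (adjusted p = 0.213).

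Leaving out the 2 libraries that stood apart gave 16 of the 45, and edgeR and DESeq2 on the recovered reads gave 16 and 17. Sdhd, Atp5o, Atp5b, Cox7a2 and Cox6b1 passed under all 48 alternatives run. A fit of only the vehicle and lithium libraries called 7 members. The count also fell without single libraries, to 7 without WT lithium male replicate 1 and to 8 without HT lithium female replicate 3. It was 10 when replicate 2 of HT lithium females, replicate 2 of HT lithium males, replicate 5 of HT vehicle males or replicate 1 of WT vehicle females was removed. It was 11 when replicate 3 of HT vehicle males, replicate 4 of WT lithium females or replicate 2 of WT vehicle males was removed.

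By stratum, the median log2 fold change of the members with lithium was 0.16 in WT males, 0.13 in HT females and 0.13 in HT males, and -0.10 in WT females. Without the 2 libraries that stood apart it was 0.11 in WT males and -0.045 in WT females, and with GC content and length trends removed 0.11 and -0.0044. In WT females 0 members passed (limma; 14 at an unadjusted p under 0.05, edgeR 0, DESeq2 2; 2.45% of all genes called). In WT males 0 passed (24 unadjusted, edgeR 0, DESeq2 1; 0.476% of genes) and in HT males 0 (14 unadjusted, edgeR 0, DESeq2 2; 0.252%). An unadjusted p under 0.05 was found for 3731, 2691 and 2203 of all 17875 genes in WT females, WT males and HT males. In HT females 2 members rose, where 1.82% of all genes were higher and 2.98% called in either direction.

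Those 2 were Cox6a1 and Atp5d. Cox6a1 was 6187, 5909, 5896, 4990 and 6918 in HT vehicle females and 7810, 8050, 8965 and 6383 in HT lithium females (0.38, limma, adjusted p = 0.0267). Atp5d, the delta subunit of the ATP synthase stalk, was 4117, 3902, 3754, 3650 and 4966 against 5109, 5713, 5729 and 4590 (0.38, adjusted p = 0.0332). For each gene 1 lithium library lay below the highest vehicle library. Without the 2 libraries that stood apart, which lie in other groups but enter the common estimate of spread, 8 members passed. The share of all genes called in that fit is not given here. Of the 8 members, 7 rose and Uqcrb fell by 0.26. None passed in a fit of these groups alone, nor when replicate 1, 2 or 3 of the lithium or replicate 2 or 4 of the vehicle group was removed. Removal of lithium replicate 4 left 7 calls, and of vehicle replicate 5 left 4.

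The difference of the lithium effect between the sexes was not past the threshold for any member. It was negative (lower in females) for 40 of 45, with a median of -0.13. An unadjusted p under 0.05 was found for 13 members (past the threshold: limma 0, edgeR 0, DESeq2 0) and for 1041 of all 17875 genes. The median of the members was -0.07 without the 2 libraries that stood apart and -0.04 with GC content and length trends removed. Uqcrh (-0.28, SE 0.0825), Cox7a2 (-0.23) and Atp5j2 (-0.24) had the smallest p-values (adjusted p = 0.535, 0.675 and 0.727). The difference between genotypes had a median of 0.08 over the members, with 0 past the threshold with any of the 3 tools. An unadjusted p under 0.05 was found for 10 members and for 1700 of all 17875 genes. Cox6a1 (0.29), Cox7a2l (0.18) and Cox4i1 (0.22) had the smallest p-values there (limma, adjusted p = 0.419 each).

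Other genes of respiration were set beside the members. With lithium 13 of 38 nuclear complex I genes rose and 0 fell (median 0.09), among them Ndufa9 (0.11, adjusted p = 0.00194), Ndufa8 (0.13) and Ndufv1 (0.14). Of the 37 assembly factors measured, 6 rose and 1 fell. Risen were Cox15 (0.16, adjusted p = 8.94e-05) and Cox10 (0.16), which make heme a for complex IV, the ATP synthase assembly factor Atpaf1 (0.18), and the copper chaperone Sco2 (0.26). Sdhaf1, an assembly factor of complex II, fell by 0.16. Slc25a5, an ADP/ATP carrier, rose by 0.14 (adjusted p = 0.00534), the 1 of 6 carrier and cytochrome c genes that passed. Polrmt, the mitochondrial RNA polymerase, rose by 0.17 (adjusted p = 0.0193), as 1 of 14 regulators. Of the 13 mitochondrially encoded subunits 0 rose and mt-Atp8 fell by 0.41 (adjusted p = 0.0104; median of the 13, -0.03), and of 76 cytosolic ribosomal genes 0 passed (median 0.03).

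Members were also counted by promoter letters. Of the 10 members with the NRF1 letters 5 rose, and of the 24 without 9 did. For the ETS letters the counts were 3 of 12 with and 11 of 22 without, for YY1 2 of 4 and 12 of 30, and for SP1 4 of 13 and 10 of 21.

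**Figure D4:**
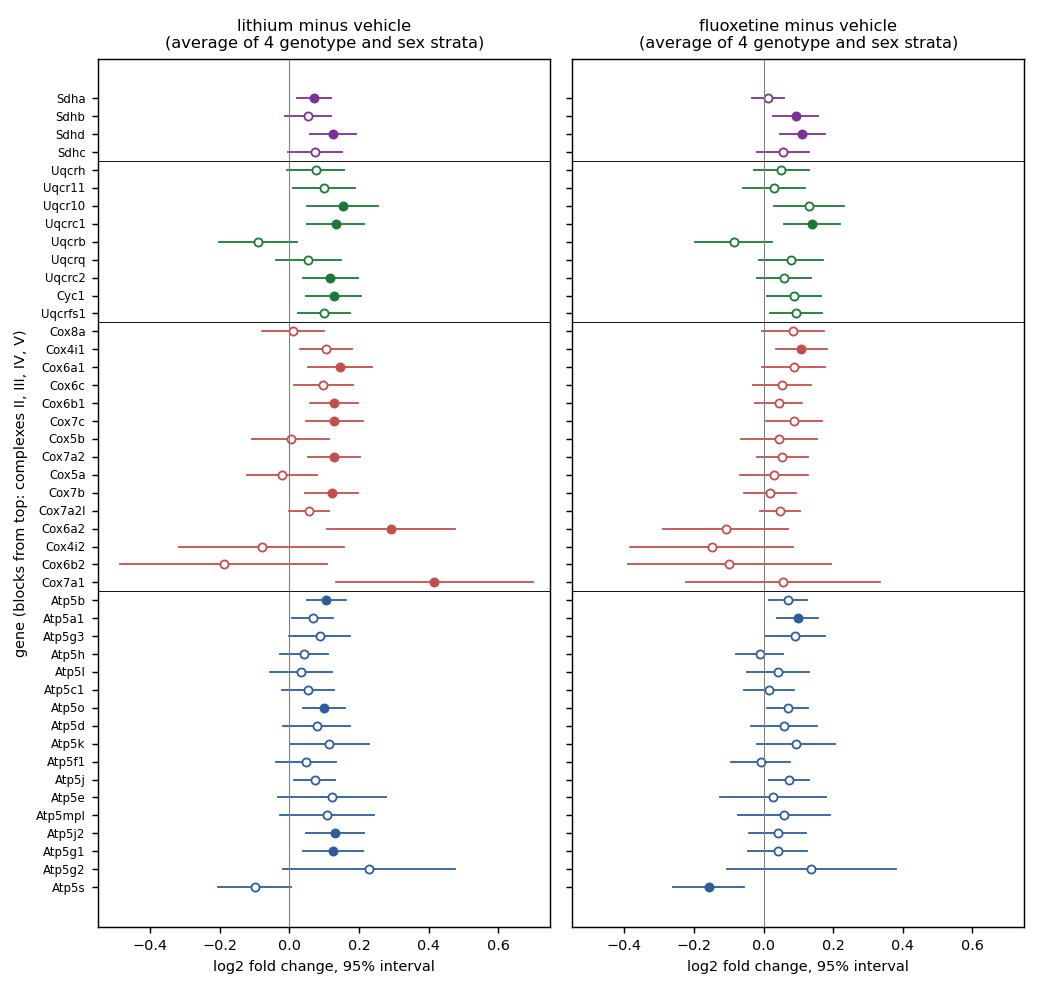
Log2 fold change of the 45 genes with lithium (left) and fluoxetine (right) against the same vehicle libraries, averaged over 4 genotype and sex strata. Bars are 95% intervals of the fold change, filled points passed the threshold, and colours mark the complex. Filled points number 17 for lithium, all to the right of 0, and 6 for fluoxetine, of which Atp5s lies to the left.

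Fluoxetine was measured against the same vehicle libraries. On average over the 4 strata 5 rose and 1 fell, where 6.94% of all genes tested were higher, 6.6% lower and 13.5% called in either direction. The share of members called in either direction was thus close to that of all genes. The median was 0.06, and 38 of 45 were positive. Uqcrc1 was 5147, 5655 and 6827 in 20 fluoxetine libraries, against 3584, 5085 and 6577 in vehicle, with 18 of 20 above their vehicle mean (0.14, SE 0.0413, limma, adjusted p = 0.0187). Sdhd was 1823, 2019 and 2388 (0.11, adjusted p = 0.0192), with 17 of 20 above. Atp5a1, the alpha subunit of the ATP synthase, was 18166, 19707 and 23166 in vehicle and 19063, 20924 and 24303 in fluoxetine libraries (0.10, adjusted p = 0.0203). All 3 genes had overlapping arms.

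Cox4i1 (0.11, adjusted p = 0.0408) and Sdhb (0.09, adjusted p = 0.0491) rose as well. Cox4i1 did not pass under 22 of 49 alternatives, edgeR among them, and Sdhb under 30, edgeR, TMM scaling and the removal of the 2 libraries that stood apart among them. Atp5s fell by 0.16 (SE 0.0522, adjusted p = 0.0345). It was 265.1, 325.9 and 422.5 in vehicle and 236.4, 286.0 and 373.5 in fluoxetine libraries, with 5 of 20 fluoxetine libraries above their vehicle mean. In lithium libraries Atp5s was 263.5, 302.2 and 372.9. Among the isoforms, Cox4i2 had the lowest value of complex IV at -0.15 (adjusted p = 0.436).

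With fluoxetine 6 of 38 complex I genes and 15 of 76 ribosomal genes rose (median of the latter 0.08), and mt-Atp8 fell by 0.34. The carriers Slc25a5 (0.10) and Slc25a3 (0.09) rose, as did the assembly factors Cox15 (0.14), Cox10 (0.13) and Coa7 (0.13), while Cox20 fell by 0.19. Of the regulators, Nrf1 rose by 0.13, and Pprc1 (-0.25), Yy1 (-0.12) and Gabpa (-0.23) fell. Of 4 endothelial markers 3 fell, with Flt1 at -0.35, and of 6 neuronal markers 0 passed. Their part in the result was not tested.

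Uqcrc1 and Atp5a1 passed with fluoxetine under all 49 alternatives run. The count of called members fell from 6 to 3 in a fit of only the vehicle and fluoxetine libraries and to 2 with GC content and length trends removed. It was 3 without any 1 of 7 libraries: HT fluoxetine female replicate 5, HT fluoxetine male replicate 5, HT vehicle female replicates 1 and 3, WT fluoxetine female replicate 3, WT fluoxetine male replicate 5 and WT vehicle female replicate 1. It was 10 without the library labelled WT vehicle female replicate 3.

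Fluoxetine differed between the sexes for some members. The effect in females minus that in males, over both genotypes, was lower for 7 of 45 genes and higher for 0, where 0.375% of all genes tested were lower and 0.425% called in either direction. The median was -0.21 and 43 of 45 were negative. The 7 were Cox7a2 (-0.40, adjusted p = 0.00623), Atp5mpl (-0.64), Atp5j2 (-0.34), Atp5e (-0.64), Cox6c (-0.35), Uqcrh (-0.33) and Cox7a2l (-0.23, adjusted p = 0.05 after rounding; limma). Among other genes 12 of 76 ribosomal and 5 of 38 complex I genes were lower, with both libraries that stood apart included.

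Cox7a2 shows the pattern by library. In WT females it was 2572, 2587, 3305, 3155 and 2635 with vehicle and 2711, 2237, 2592, 2486 and 2494 with fluoxetine. In WT males it was 2148, 1640, 1906, 2106 and 2309 with vehicle and 2645, 2726, 2304, 2455 and 2182 with fluoxetine. Fluoxetine libraries were mostly the lower ones in females and the higher ones in males, with some overlap in each. In HT mice the female libraries were 2247, 2454, 2346, 2748 and 2398 against 2143, 2287, 2492, 2138 and 2243, and the male libraries 2356, 2376, 2146, 2365 and 2000 against 2647, 2678, 2664, 2550 and 2508. In HT males the 2 groups did not overlap.

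This difference between the sexes changed when the 2 libraries that stood apart were left out. Without both, Cox7a2 (-0.33, adjusted p = 0.0227) and Atp5e (-0.46, adjusted p = 0.0485) passed, and with GC content and length trends removed 0 did. Leaving out any 1 of 26 of the 40 libraries also brought the count to between 2 and 4, and each of the 2 libraries that stood apart was among the 26.

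By stratum, 6 members rose with fluoxetine in WT males, where 0.414% of all genes were higher and 0.85% called in either direction. They were Cox7c (0.33, adjusted p = 0.0377), Sdhd (0.27), Atp5j2 (0.33), Atp5g3 (0.35), Cox7a2 (0.29) and Atp5mpl (0.51, adjusted p = 0.0485). Cox7c, a small complex IV subunit, was 2594, 1880, 2297, 2625 and 2644 in vehicle and 2943, 3220, 2781, 3054 and 3043 in fluoxetine libraries. Atp5mpl, a small proteolipid of the ATP synthase, was 1059, 680.2, 833.1, 983.1 and 1099 against 1424, 1523, 1187, 1298 and 1147. For both genes every fluoxetine library lay above every vehicle library. The 5 striatal markers had a median of 0.87 in the same comparison and 0 passed. Of the 6, 0 passed without the 2 libraries that stood apart, without WT vehicle male replicate 2 alone, without WT fluoxetine male replicate 1, 2 or 4, or in a fit of these groups alone. The count was 1 without WT vehicle male replicate 3 and 2 without WT fluoxetine male replicate 5.

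In HT males 2 members rose with fluoxetine (2.58% of genes higher, 5.74% called in either direction). For members, the share called was below that of all genes in either direction and above it for rises alone. They were Cox7a2l (0.24, limma, adjusted p = 0.0107) and Atp5j (0.18, adjusted p = 0.0498), the coupling factor F6. Cox7a2l was 2742, 3048, 2701, 3015 and 2477 in vehicle and 3448, 3002, 3341, 3563 and 3127 in fluoxetine libraries. Of the fluoxetine libraries 1 lay among the vehicle libraries. Atp5j was 2520, 2587, 2316, 2465 and 2160 against 2752, 2824, 2679, 2822 and 2591, and its groups did not overlap. The count was 0 without replicate 4 of the fluoxetine group, and 1 without replicate 2, 3 or 5 of that group or replicate 3, 4 or 5 of the vehicle group. It was 4 without the 2 libraries that stood apart, 0 with GC content and length trends removed and 0 in a fit of these groups alone. Atp5j did not pass under 15 of 19 alternatives.

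In females the members had negative medians with fluoxetine. In WT females 0 passed, with a median of -0.08 (limma; 8 unadjusted, edgeR 0, DESeq2 0; 2.85% of genes called), and Atp5e (-0.40, adjusted p = 0.161) had the smallest p-value. The median was -0.02 without the 2 libraries that stood apart, of which the library labelled WT vehicle female replicate 3 enters this comparison. In HT females 0 passed, with a median of -0.05 (4 unadjusted, edgeR 0, DESeq2 0; 0% of genes called), and Atp5s (-0.35, adjusted p = 0.436) had the smallest. The difference of the fluoxetine effect between genotypes was past the threshold for 0 members (5 unadjusted, edgeR 0, DESeq2 0) and 0.0392% of genes. Uqcrc2 (-0.26, limma, adjusted p = 0.149) was first by p-value among the members. Over all 17875 genes, 2939 had an unadjusted p under 0.05 in WT females, 1370 in HT females and 2231 for the difference between genotypes.

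Genotype showed calls in 1 of its 6 strata. In vehicle females 7 members were lower in HT than in WT mice and 0 higher, where 1.67% of all genes tested were lower and 6.2% were called in either direction. They were the complex III subunits Uqcr10 and Uqcr11, the complex IV subunits Cox4i1, Cox6a1, Cox6b1 and Cox8a, and Atp5d of complex V. None of the 4 complex II genes passed, with values from -0.08 for Sdhc to 0.05 for Sdha. The median over the 45 was -0.13, and 37 were negative, against a median of 0.00 over all genes.

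Atp5d was 4884, 5095, 5924, 5305 and 5436 normalised counts in WT vehicle females and 4117, 3902, 3754, 3650 and 4966 in HT vehicle females. The HT libraries lay below the WT ones but for 1 library. The log2 fold change was -0.39 (SE 0.0965, limma, adjusted p = 0.0131). Uqcr10, a small complex III subunit, was 1797, 1962, 2237, 1984 and 1843 in WT and 1424, 1457, 1419, 1520 and 1733 in HT libraries, with no overlap (-0.38, SE 0.103, adjusted p = 0.022).

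Cox4i1, the subunit through which ATP regulates complex IV, was 10448, 11582, 12558, 11293 and 10798 in WT and 9147, 9114, 9039, 8658 and 10603 in HT libraries. One HT library lay above the lowest WT library (-0.28, SE 0.0742, adjusted p = 0.0181). Cox8a was 10202, 10364, 10521, 10645 and 10057 in WT and 8639, 8223, 8338, 7308 and 9451 in HT libraries, again without overlap (-0.31, SE 0.0906, adjusted p = 0.0324). The others were Uqcr11 (-0.35), Cox6b1 (-0.27) and Cox6a1 (-0.33). The lowest value of complex IV belonged to Cox6a2, which did not pass (-0.35, adjusted p = 0.245).

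In the same comparison 4 of 38 complex I genes fell (Ndufb9, Ndufb8, Ndufa8 and Ndufb7, from -0.21 to -0.27) and 10 of 76 ribosomal genes fell (median -0.20). The library labelled WT vehicle female replicate 3 enters these counts, with scores of 0.30 for complex I and 0.40 for ribosomal genes. Counts for these lists without it are not given here. The 13 mitochondrially encoded subunits had a median of -0.26 and 0 passed. Among regulators Ppargc1a, a coactivator of mitochondrial biogenesis, rose by 0.38 (adjusted p = 0.0276), as did Esrrg (0.37) and Gabpa (0.35). The 5 oligodendrocyte markers had a median of -0.57 with 0 passed, the 4 endothelial markers 1 fall (Cldn5, -0.40), and 0 of 6 neuronal markers passed. Their part in the result was not tested.

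The WT side of this comparison includes the library labelled WT vehicle female replicate 3, whose Ash1l level goes against the label. Without it alone 0 members passed, and without both libraries that stood apart 3 did, Atp5d (-0.35, adjusted p = 0.0378), Cox4i1 (-0.25) and Uqcr10 (-0.33). The count was 0 with GC content and length trends removed and in a fit of these 10 libraries alone. Among HT vehicle females, removal of replicate 4 left 0 calls, of replicate 2 left 1 and of replicate 5 left 11. Removal of WT vehicle female replicate 1 left 13.

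In vehicle males the values had the other sign. Of the 45 members 42 were positive in HT against WT, with a median of 0.15, but 0 passed (limma; 13 unadjusted, edgeR 0, DESeq2 0; 0.00559% of genes called). An unadjusted p under 0.05 was found for 1240 of all 17875 genes. Among the members Uqcrh (0.24, SE 0.0812), Cox7c (0.21) and Uqcr10 (0.26) had the smallest p-values (limma, adjusted p = 0.705 each), and Atp5g2 the largest value (0.48, adjusted p = 0.731). The median was 0.08 without the 2 libraries that stood apart, of which WT vehicle male replicate 2 enters this comparison. Uqcrh was 2320, 2428, 2431, 2421 and 2400 in WT and 2822, 3024, 2588, 3022 and 2706 in HT vehicle males. All 5 HT libraries lay above the WT libraries, which were close together.

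The difference between the sexes was tested in 1 fit. The HT effect in females minus that in males was lower for 11 of 45 genes and higher for 0, where 1.14% of all genes tested were lower and 2.9% called in either direction. They were Uqcr10 (-0.64, adjusted p = 0.0247), Cox4i1 (-0.46), Uqcrh (-0.48), Cox7c (-0.45), Uqcr11 (-0.49), Atp5d (-0.52), Cox6b1 (-0.37), Cox6a1 (-0.49), Cox7a2 (-0.38), Atp5j2 (-0.41) and Cox8a (-0.44, adjusted p = 0.0468; limma). The median was -0.25 and 43 of 45 were negative. In vehicle males Cox4i1 was 8982, 6583, 8702, 9446 and 9463 in WT and 9559, 10416, 9105, 10494 and 8755 in HT libraries, so that the order of genotypes was the reverse of that in females, with overlap. Ribosomal genes had the same sign, with 24 of 76 lower (median -0.35), and so did complex I genes, with 6 of 38 (-0.28). Both libraries that stood apart enter these counts, with ribosomal scores of 0.40 (labelled WT vehicle female) and -0.52 (WT vehicle male). Counts for these lists without the 2 libraries are not given here.

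With both libraries that stood apart left out, 0 of the 11 passed, and the same held with either left out alone. The count was also 0 when replicate 4 of HT vehicle females, replicate 2 or 4 of HT vehicle males or replicate 3 of WT vehicle males was removed. Removal of replicate 2 of HT vehicle females left 1, of replicate 4 of WT vehicle females 6 and of replicate 5 of WT vehicle males 17. It was 0 with GC content and length trends removed and in a fit of the 4 vehicle groups alone.

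**Figure D5:**
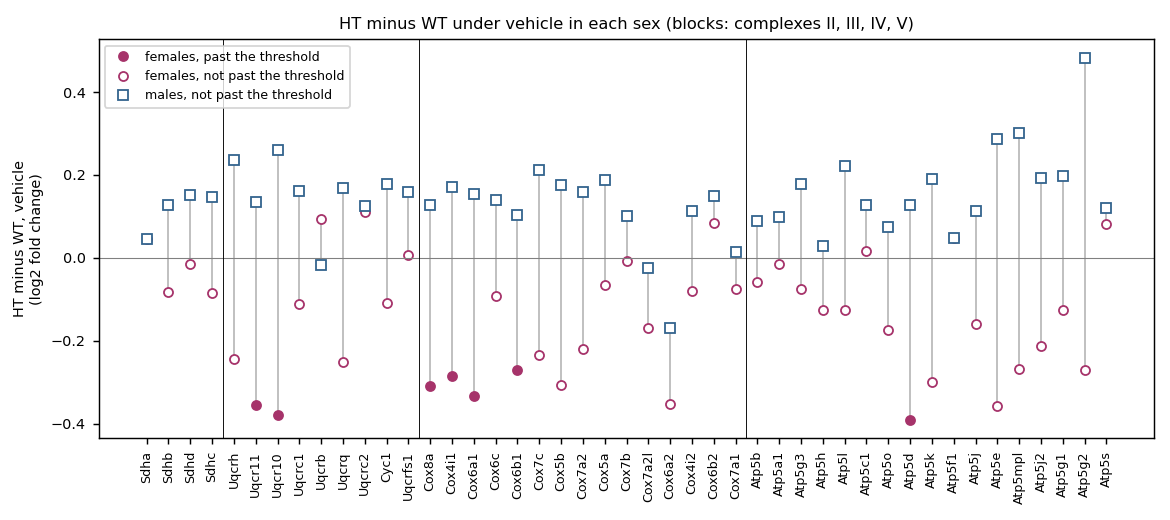
HT against WT in vehicle mice for the 45 genes, in blocks of complexes II to V. Points are log2 fold changes, coloured by sex and filled where the threshold was passed. Circles are females, squares are males, and a grey line joins the values of each gene. Filled points number 7 in females, all below 0, and 0 in males, where 42 of 45 lie above 0.

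In the drug arms no member passed the test between genotypes. In fluoxetine females 44 of 45 values were negative, with a median of -0.12 (limma 0 called, 9 unadjusted, edgeR 0, DESeq2 0; 1.95% of genes called), and Cox8a (-0.25, adjusted p = 0.138) had the smallest p-value. In fluoxetine males the median was 0.04 (0 called, 4 unadjusted, edgeR 0, DESeq2 0; 0.386%), with Atp5s at -0.26 (adjusted p = 0.201). In lithium females it was 0.06 (0 called, 3 unadjusted, edgeR 0, DESeq2 0; 0.00559%), with Cox6a1 at 0.28 (adjusted p = 0.544). In lithium males it was 0.11 (0 called, 5 unadjusted, edgeR 0, DESeq2 0; 0.00559%), with Atp5c1, the gamma subunit, at 0.23. Averaged over the 6 strata 0 members passed (1 unadjusted, edgeR 0, DESeq2 0; 0.358%), and the median was 0.02 (0.0081 without the 2 libraries that stood apart). Cox6a2 (-0.18, limma, adjusted p = 0.491) was first by p-value. Over all 17875 genes, 2784 had an unadjusted p under 0.05 in fluoxetine females and 2782 in fluoxetine males. The number was 1367 in lithium females, 662 in lithium males and 1448 for the average.

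Between the sexes, averaged over the 6 strata of genotype and drug, 0 members passed (limma; 20 unadjusted, edgeR 0, DESeq2 1; 0.117% of genes called). Values in females minus males were positive for 39 of 45, with a median of 0.07, and for 15 of 15 genes of complex IV, with a median of 0.10. Uqcrh (0.14, SE 0.0335, adjusted p = 0.0795), Atp5d (0.14) and Cox8a (0.13) had the smallest p-values, and Cox6b2 the largest value (0.31, adjusted p = 0.297). Complex II had a median of 0.03. Over all genes, 2209 of 17875 had an unadjusted p under 0.05.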

How the data were processed

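RNA of 59 prefrontal cortex samples was sequenced with the TruSeq Stranded mRNA kit, per the labels' protocols. The authors' deposited table holds a normalised signal, counts divided by size factors (0.8086 to 1.3615), for 18088 genes. The submitters' processing notes name Salmon 0.11.2, R 3.6.0, DESeq2 1.19.11 and GRCm38. The strand setting of the counting is not given in the sources used here. Whole reads were recovered for 100% of values (tolerance 0.01), which gives 24470000 to 36320000 reads per library. Intervals cover the spread between libraries.

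Of the 18088 genes, 18077 had a symbol by identifier. Genes with a value of at least 10 in 5 libraries (17875; all 45 members) entered 1 limma 3.58.1 fit (R 4.3.3; trend, robust) on log2(value + 1), with 1 mean per group. Such fold changes understate changes of low genes. P-values were adjusted over all 17875 genes, with a threshold of 0.05. edgeR 4.0.16, DESeq2 1.42.0 and the other alternatives are described at the end, and the scripts were tested on simulated data. Lengths are of the principal transcripts of the annotation.

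Members, gene lists and markers were chosen with earlier results of these data known. Named by rule are members past the threshold (up to 10 per direction and comparison by p-value; the others past it were named after their values were seen), the highest and lowest of each complex, the restricted isoforms and their partners, the c subunit genes, up to 4 other chain genes per direction, and the first by p-value where nothing passed. A gene of another list that this rule names is not reported here.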

Additional observations from a re-analysis of the deposited data

Results flagged for a closer look

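In 264 groups of 4 or 5 libraries, 21 held a library far from the others. Chance alone gives about 1 in 20 for independent groups. These groups are genes and scores of the same 59 libraries, so the 21 cannot be judged by that rate. In WT vehicle males the complex II score of replicate 2, which stood apart, was -0.36, against -0.11 to -0.04 in the others. In that group 1 low library also had 1332 normalised counts of Sdhd (others 1804 to 1866), 3584 of Uqcrc1 (4779 to 5144), 6583 of Cox4i1 (8702 to 9463), 2905 of Atp5d (4061 to 4404) and 357.4 of Atp5e (872.8 to 1025), and 1 library was high for Atp5s with 353.5 (281.4 to 294.6). In WT lithium males 1 library was high for the complex III score (0.12, others -0.11 to -0.05), Uqcr11 (2414), Cox7a1 (26.09), Atp5b (29330) and Atp5d (5432). In WT fluoxetine males 1 library was low for Uqcrc1 (5257) and Uqcr11 (1689), and 1 was high for Atp5g2 (255.4). In WT fluoxetine females the complex IV score of 1 library was 0.20 (others 0.05 to 0.08), and in WT lithium females the complex V score of 1 was -0.0127 (others 0.05 to 0.08). In HT mice, 1 vehicle male library was high for Sdha (10710), 1 vehicle female library for Cox4i1 (10600) and 1 lithium male library for Cox6a1 (7701), and 1 lithium female library was low for Uqcrc1 (5391).

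Between the sexes, the HT effect in vehicle mice (females minus males, log2) differed for 11 members: Uqcr10 -0.64, Uqcrh -0.48, Uqcr11 -0.49, Cox4i1 -0.46, Cox7c -0.45, Cox6b1 -0.37, Cox6a1 -0.49, Cox7a2 -0.38, Cox8a -0.44, Atp5d -0.52 and Atp5j2 -0.41. The fluoxetine effect differed for 7: Cox7a2 -0.40, Cox7a2l -0.23, Cox6c -0.35, Uqcrh -0.33, Atp5mpl -0.64, Atp5j2 -0.34 and Atp5e -0.64. The first set lost all calls without the 2 libraries that stood apart, and the second kept Cox7a2 and Atp5e.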

How the results depend on the processing

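Counts of members past the threshold moved as follows. The shares of all genes called under these alternatives are not given here, so the counts are not set against them. With DESeq2 on recovered reads the count was 16 for HT vehicle females (7 in limma), 12 for fluoxetine in WT males (6), 2, 1, 5 and 2 for lithium in WT females, WT males, HT females and HT males (0, 0, 2 and 0), 1 for sex (0), 17 for genotype by sex (11) and 12 for fluoxetine by sex (7). With GC content and length trends removed it was 0 for HT vehicle females, 2 for fluoxetine in WT males, 0 in HT males, 2 for average fluoxetine, 0 for lithium in HT females, 0 for genotype by sex and 0 for fluoxetine by sex, while average lithium gave 20, 15 of them among the 17. Without the 2 libraries that stood apart it was 3 for HT vehicle females, 0 and 4 for fluoxetine in WT and HT males, 8 and 1 for lithium in HT females and males, 0 for genotype by sex and 2 for fluoxetine by sex. In fits of only the groups compared it was 0 for HT vehicle females, genotype by sex, fluoxetine in WT and HT males and lithium in HT females, 3 for average fluoxetine, 7 for average lithium and 1 for fluoxetine by sex. For fluoxetine in HT males (2) it was 1 with edgeR, TMM scaling, a pseudocount of 10, no filter or the replicate block.

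Leaving out 1 library at a time gave 0 to 13 for HT vehicle females, 0 to 8 and 0 to 2 for fluoxetine in WT and HT males, 3 to 10 for average fluoxetine, 0 to 2, 0 to 3, 0 to 7 and 0 to 1 for lithium in WT females, WT males, HT females and HT males, 7 to 19 for average lithium, 0 to 1 for sex, 0 to 17 for genotype by sex and 2 to 9 for fluoxetine by sex. The cause of these shifts was not tested. No member's value changed sign among those called. Over single called members and alternatives, 633 values no longer passed. Another 2175 values counted as unchanged, but these also include medians over the members. Such a median counted as unchanged if it shifted by less than 0.0905, and was not judged by the threshold. Replicate numbers did not pair the libraries: the mean correlation of residuals was -0.0112 for 319 pairs of the same number and 0.0028 for 1276 of different numbers. With the replicate block average lithium called 15, average fluoxetine 5 and genotype by sex 11.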
